A study of Mus musculus with 12 samples.

Results

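The genes described here are 10 members of the inflammasome pathway and the interleukin-1 (IL-1) family: the sensor Nlrp3, the adaptor Pycard, the ATP-gated channel P2rx7, the caspases Casp1, Casp4 and Casp12, the pore former Gsdmd, and the cytokines Il1a, Il1b and Il18. They are 10 of the 22180 genes that the arrays name singly, and all 10 passed the filter on low values. The set was chosen by measured values: Casp12 and P2rx7 stood 1st and 3rd by p among the 6426 tested genes with lower values under anti-VEGF than under vehicle in healthy liver. The 2nd, F830016B08Rik, is a clone-named gene, and the 4th, just outside, was Rtp4, at a log2 difference of -1.32 against -0.88 for Casp12 and -0.58 for P2rx7. Values of that contrast are therefore given for all 10 genes as a description with no test. The same holds for Casp12 and P2rx7 wherever healthy liver arrays enter a comparison.

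The study measured RNA of mouse colorectal tumours taken from the liver, on 12 single-colour arrays, 3 in each of 4 groups; the design text gives 3 mice per group and does not tie arrays to mice. The groups were tumours in fatty liver under anti-VEGF (treatment directed against vascular endothelial growth factor), in fatty liver under vehicle, in healthy liver under anti-VEGF, and in healthy liver under vehicle. All mice carried tumour cells injected into the liver; the labels name no cell line, mouse strain, age, sex, agent, dose or way of making the liver fatty. The question is how these genes differ with the state of the liver and with treatment.

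The inflammasome is a protein platform in cells such as macrophages. A sensor such as NLRP3 binds the adaptor ASC, the product of Pycard, which recruits and activates caspase-1, and caspase-1 cleaves the precursors of IL-1 beta and IL-18 and opens gasdermin D into a membrane pore. P2X7, opened by extracellular ATP, lets potassium leave the cell, a trigger for NLRP3, and the product of mouse Casp4, also called caspase-11, senses bacterial lipopolysaccharide inside the cell. Messenger RNA levels show the supply of these parts and not whether an inflammasome was active.

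Casp1, Casp4 and Casp12 lie side by side on mouse chromosome 9, and their start regions are shown because the neighbours differed in direction between livers. The sequences are from RefSeq (GRCm38.p6, plus strand), 250 bases before to 50 after an annotated start, for Casp1 at chr9:5298267-5298566, for Casp4 (the first of its listed starts) at chr9:5308599-5308898 and for Casp12 at chr9:5345226-5345525. Capitals mark matches to any of 5 motifs searched on both strands.
Casp1: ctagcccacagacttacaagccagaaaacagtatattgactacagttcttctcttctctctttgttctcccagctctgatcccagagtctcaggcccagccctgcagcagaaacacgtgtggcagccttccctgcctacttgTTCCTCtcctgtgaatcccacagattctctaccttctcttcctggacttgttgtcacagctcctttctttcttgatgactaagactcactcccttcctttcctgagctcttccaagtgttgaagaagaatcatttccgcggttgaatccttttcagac
Casp4: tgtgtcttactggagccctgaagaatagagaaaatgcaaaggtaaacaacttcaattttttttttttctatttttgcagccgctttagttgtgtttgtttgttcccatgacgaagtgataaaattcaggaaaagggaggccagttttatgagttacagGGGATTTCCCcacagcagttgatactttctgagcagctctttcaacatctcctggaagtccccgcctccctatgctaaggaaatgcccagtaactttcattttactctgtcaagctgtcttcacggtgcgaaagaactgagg
Casp12: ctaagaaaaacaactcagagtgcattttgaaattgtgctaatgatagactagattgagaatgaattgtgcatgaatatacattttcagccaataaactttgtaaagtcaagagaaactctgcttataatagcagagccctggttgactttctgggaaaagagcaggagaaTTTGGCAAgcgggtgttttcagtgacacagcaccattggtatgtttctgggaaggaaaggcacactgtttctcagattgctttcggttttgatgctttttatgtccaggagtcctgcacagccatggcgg

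In Casp4 the capitals at -92 to -83 from the start match, on both strands, the NF-kB form (GGGA and CC with any 4 bases between). In Casp1 they match GAGGAA, the core bound by the myeloid factor PU.1, on the minus strand at -108 to -103, and in Casp12 they match the C/EBP form TTGCNNAA on the minus strand at -80 to -73. The other motifs were AP-1 (TGANTCA) and the interferon-stimulated element (GAAA and GAAA with any 2 bases between). RefSeq listed 12 start regions for 9 of the 10 genes, Gsdmd not among them. The PU.1 core was found in 6 of these 12 (in Il1a, P2rx7, Pycard, Casp1 and Nlrp3), against 28.3% of all 32851 start regions of that length. The NF-kB form was in 3 of 12 (both starts of Casp4, which overlap, and 1 of Nlrp3), against 20.7%, AP-1 in 2 against 7.81%, C/EBP in 2 against 10.8%, and the interferon element in 0 against 3.44%. A match is a run of letters and does not show that a factor binds there.

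Several arrays stood apart or were nearly alike, which touches every value below. Between 2 arrays, the SD over 13286 tested genes of their differences was 0.148 to 0.163 between vehicle arrays 1 and 3 of each liver and among the 3 anti-VEGF arrays of healthy liver, against 0.391 to 0.636 for the other pairs within groups. That the closest of these are separate animals was not tested. Vehicle array 2 of healthy liver was high in fibroblast markers (list mean 9.88, against 7.44 and 7.31 on the other arrays of its group), and anti-VEGF array 3 of fatty liver was low in T and NK cell markers (5.54, against 8.12 and 7.74). Xist was 8.10 or higher on vehicle arrays 1 and 3 of both livers and at or below 4.32 on the other 8 arrays. High Xist thus occurred under vehicle only and is partly mixed with treatment in both livers. Its part in the treatment differences was not tested. The detection limit was the median of the whole table, 4.93. Of the 8 intestinal epithelium markers, Epcam, Krt19, Krt20 and Vil1 were below it on every array (highest value 4.38), Krt8 (9.12 to 10.8), Krt18 (6.47 to 8.36) and Cdh1 (5.63 to 8.67) were above it on all 12, and Cdx2 was above it on 4. Of the 9 hepatocyte markers 6 were never above it, among them Alb (at most 4.07), while Ttr, Apoa1 and Apoa2 lay at 4.97 to 5.75, above it on all 12.

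Tumours in fatty liver had more RNA of most of the inflammasome and IL-1 genes than tumours in healthy liver, under either treatment. Counted here are the 7 tested members above the detection limit on at least 3 arrays of each liver; Il1a passed the filter through its fatty liver values and is given apart. Under anti-VEGF all 7 rose in fatty liver (limma, adjusted p under 0.05), with a median log2 difference of 2.34 against -0.13 over all tested genes. Of all tested genes 45.8% passed in that comparison, 18.2% as rises and 27.6% as falls. Under vehicle 6 of 7 rose, with a median of 1.65 against -0.12, where 49.6% of all tested genes passed, 19.2% as rises and 30.4% as falls. All fatty liver arrays were above all healthy liver arrays for 7 of 7 under anti-VEGF (21.9% of all tested genes) and 7 of 7 under vehicle (23.6%), and below them for 0 (36.6% and 37.2%). Il1a, Il1b and Nlrp3 had the largest differences, and Casp12 went the other way.

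The calls depended on arrays that are nearly alike or high in Xist. With the nearly alike arrays averaged into 1 each, which leaves 1 healthy liver anti-VEGF array, 2 of 7 passed under anti-VEGF (Pycard and Casp1) and 1 of 7 under vehicle (Pycard), with median differences of 2.34 and 1.60. Without the 4 vehicle arrays high in Xist, which leaves 1 vehicle array per liver, 0 of 7 passed under vehicle, with a median of 1.47. There Il18 differed by 2.13, Casp1 by 1.47, Nlrp3 by 2.03 and Il1b by 2.10, against 2.16, 1.65, 2.64 and 3.25 with all arrays. With any 1 array omitted, 7 passed under anti-VEGF and 6 or 7 under vehicle.

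**Figure D1:**
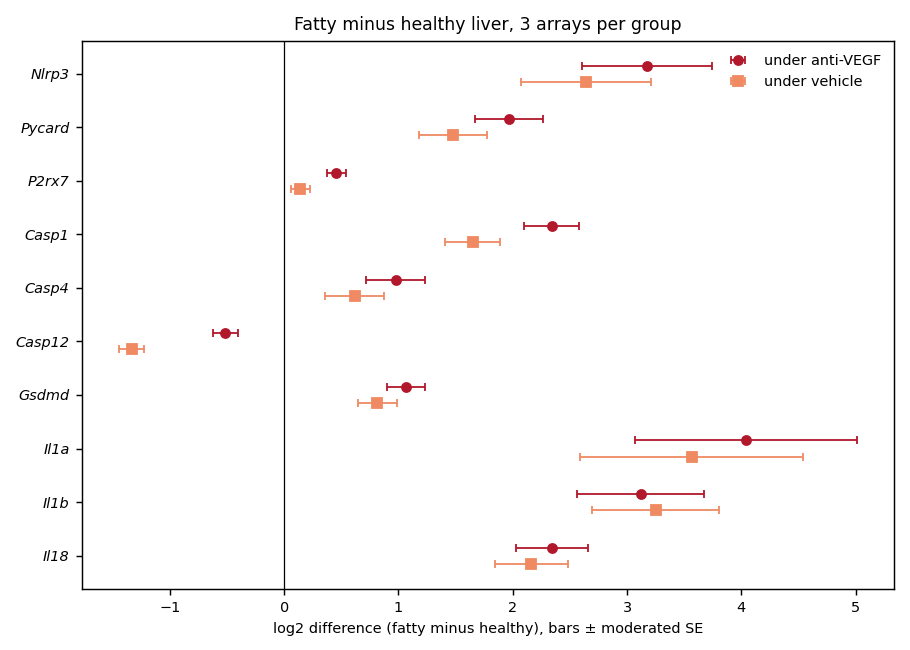
Log2 difference, fatty minus healthy liver, for each of the 10 genes under anti-VEGF (circles) and under vehicle (squares), with bars of 1 moderated standard error, 3 arrays per group. Il1a, Il1b and Nlrp3 lie farthest to the right, at 2.64 to 4.04, and Casp12 alone lies left of 0, at -0.51 and -1.33; Casp12 and P2rx7 are shown without a test.

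Nlrp3, the sensor, was at 9.90, 9.71 and 7.52 (log2 expression, as are all levels below) on the fatty liver anti-VEGF arrays and 9.14, 9.66 and 9.19 under vehicle, against 5.90, 5.86 and 5.86 on the healthy liver anti-VEGF arrays and 6.25, 7.63 and 6.20 under vehicle. No fatty liver array was as low as the healthy liver arrays of the same treatment, but fatty liver anti-VEGF array 3 lay below healthy liver vehicle array 2. The log2 difference between livers was 3.17 under anti-VEGF (SE 0.57, adjusted p = 0.0017) and 2.64 under vehicle (SE 0.57, adjusted p = 0.00425).

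Pycard, the adaptor, lay at 8.28 to 8.71 on the 6 fatty liver arrays and at 5.94 to 7.28 on the 6 healthy liver arrays, without overlap. It rose by 1.97 under anti-VEGF (SE 0.30, adjusted p = 0.000634) and by 1.48 under vehicle (SE 0.30, adjusted p = 0.00303). It was the member that passed in both comparisons with the nearly alike arrays averaged (adjusted p = 0.0287 and 0.0381). In healthy liver its arrays did not follow the near-identity seen over all genes, since vehicle array 1 was at 6.32 and array 3 at 7.27.

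Casp1, the protease that matures IL-1 beta and IL-18, was at 9.23, 8.76 and 8.42 on the fatty liver anti-VEGF arrays and 8.94, 9.40 and 8.97 under vehicle, against 6.31, 6.59 and 6.49 on the healthy liver anti-VEGF arrays and 7.20, 7.93 and 7.23 under vehicle. All 6 fatty liver arrays were above all 6 of healthy liver. The differences were 2.34 under anti-VEGF (SE 0.24, adjusted p = 6.73e-05) and 1.65 under vehicle (SE 0.24, adjusted p = 0.000615).

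Casp4, the caspase of the noncanonical pathway, was at 10.49, 10.10 and 9.22 on the fatty liver anti-VEGF arrays and 10.09, 10.48 and 10.02 under vehicle, against 8.90, 9.0 and 8.97 on the healthy liver anti-VEGF arrays and 9.54, 9.67 and 9.53 under vehicle. The livers did not overlap within a treatment, though fatty liver anti-VEGF array 3 lay below the healthy liver vehicle arrays. It rose by 0.98 under anti-VEGF (SE 0.26, adjusted p = 0.0122). Under vehicle the difference of 0.62 (SE 0.26) did not pass (adjusted p = 0.0694), and it passed without fatty liver anti-VEGF array 1 (adjusted p = 0.0288) or array 3 (adjusted p = 0.00398), which enter only through the shared spread.

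Casp12 ran against its neighbours. It was at 6.24, 5.88 and 6.32 on the fatty liver anti-VEGF arrays and 6.23, 6.24 and 6.13 under vehicle, against 6.64, 6.67 and 6.67 on the healthy liver anti-VEGF arrays and 7.45, 7.64 and 7.52 under vehicle. All fatty liver arrays were below all healthy liver arrays, and the log2 difference was -0.51 under anti-VEGF (SE 0.11) and -1.33 under vehicle (SE 0.11). Since the healthy liver values of this gene chose it, the differences are given without a test.

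P2rx7, the ATP-gated channel, varied least of the 10, over 0.85 across all 12 arrays. It was at 9.32, 9.37 and 9.28 on the fatty liver anti-VEGF arrays and 9.67, 9.45 and 9.63 under vehicle, against 8.86, 8.82 and 8.92 on the healthy liver anti-VEGF arrays and 9.51, 9.33 and 9.50 under vehicle. Its difference between livers was 0.46 under anti-VEGF (SE 0.08), where the groups did not overlap, and 0.14 under vehicle (SE 0.08), where they did, again as a description.

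Gsdmd, whose product forms the membrane pore, lay at 7.74 to 8.41 on the fatty liver arrays and at 6.98 to 7.63 on the healthy liver arrays, without overlap. The differences were 1.07 under anti-VEGF (SE 0.17, adjusted p = 0.000817) and 0.82 under vehicle (SE 0.17, adjusted p = 0.00341). A second row of the array named Gsdmd stayed between 4.64 and 5.34 on all arrays, around the detection limit, and was not used.

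**Figure D2:**
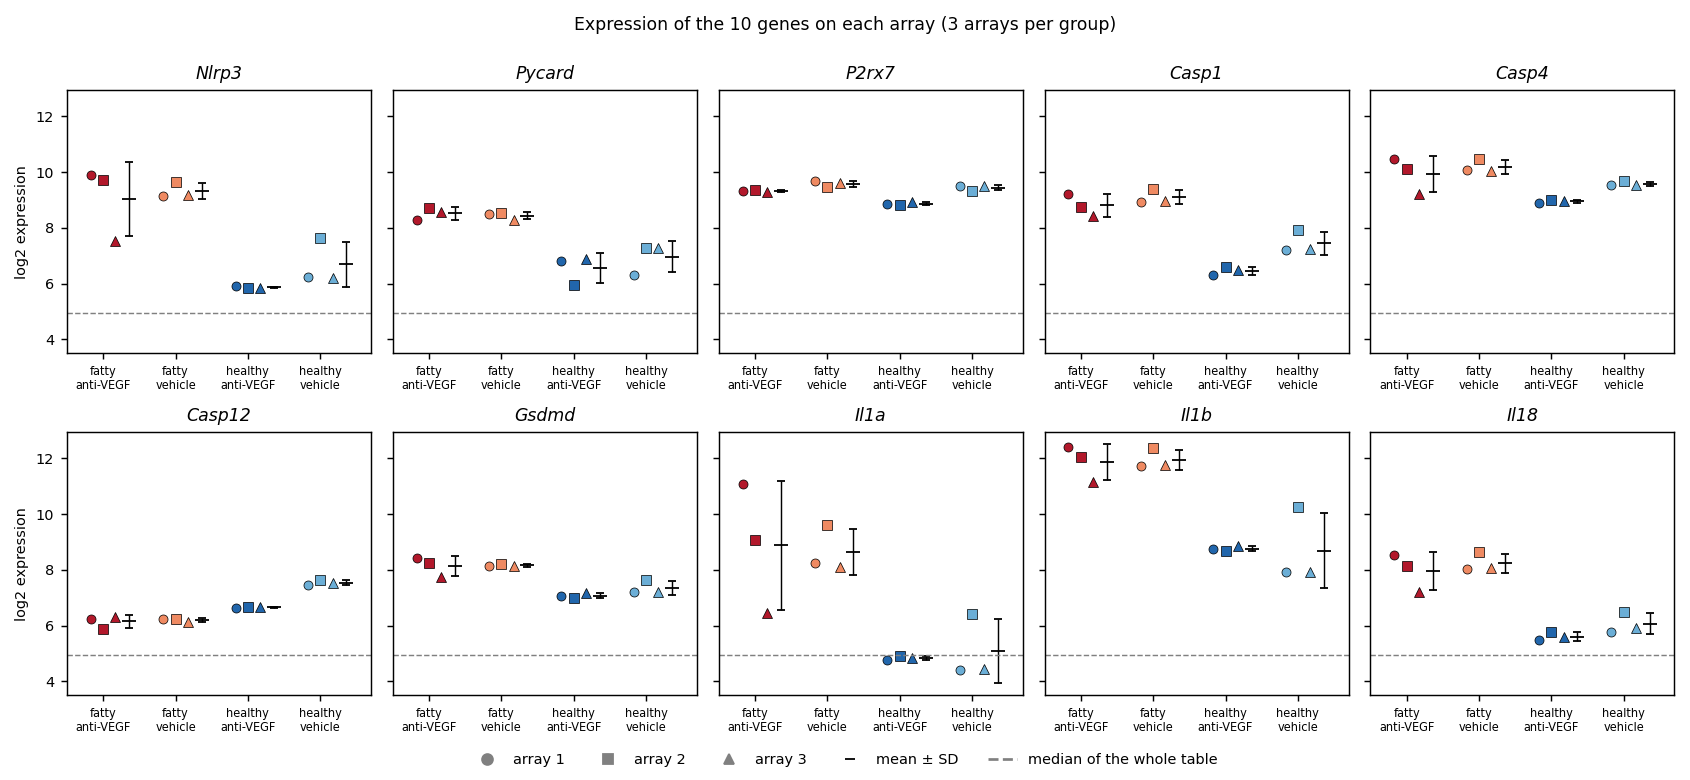
Log2 expression of the 10 genes (1 panel each, a common axis) on every array, fatty liver anti-VEGF and vehicle at the left and healthy liver anti-VEGF and vehicle at the right of each panel; symbols give the array number, bars the mean ± SD of 3 arrays, and the dashed line the median of the whole table, 4.93. In 8 panels the healthy liver arrays sit low, with vehicle array 2 (square) often the highest of them, Casp12 shows the opposite step and P2rx7 is nearly level.

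Among the cytokines, Il1b, the main secreted IL-1 cytokine, was at 12.40, 12.05 and 11.16 on the fatty liver anti-VEGF arrays and 11.72, 12.35 and 11.75 under vehicle, against 8.74, 8.67 and 8.85 on the healthy liver anti-VEGF arrays and 7.91, 10.25 and 7.91 under vehicle. Every fatty liver array was above every healthy liver array, and healthy liver vehicle array 2 stood more than 2 above the other vehicle arrays of its group. The differences were 3.12 under anti-VEGF (SE 0.56, adjusted p = 0.00166), or 8.68-fold, and 3.25 under vehicle (SE 0.56, adjusted p = 0.00138), or 9.53-fold.

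Il1a, which acts on the same receptor without needing caspase-1, was at 11.07, 9.08 and 6.46 on the fatty liver anti-VEGF arrays and 8.24, 9.60 and 8.09 under vehicle, against 4.75, 4.89 and 4.84 on the healthy liver anti-VEGF arrays and 4.40, 6.42 and 4.43 under vehicle. All fatty liver arrays were above 6.42, the highest of healthy liver, and array 3 under anti-VEGF exceeded it only narrowly. In healthy liver Il1a was above the detection limit on vehicle array 2 alone, so the filter that let it be tested already favoured a difference, and the healthy liver level is a bound. Under anti-VEGF it was at least 15.3-fold higher in fatty liver (log2 4.04 as measured, SE 0.97, adjusted p = 0.00805). Under vehicle the difference was 3.57 (SE 0.97, adjusted p = 0.0126; 3.22 with the 2 healthy liver arrays below the limit set to it), which no longer passed when array 2 of that fatty liver group was omitted (adjusted p = 0.0528).

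Il18, the other substrate of caspase-1 among the cytokines, was at 8.51, 8.14 and 7.20 on the fatty liver anti-VEGF arrays and 8.02, 8.63 and 8.05 under vehicle, against 5.47, 5.76 and 5.59 on the healthy liver anti-VEGF arrays and 5.77, 6.50 and 5.93 under vehicle. The livers did not overlap. It rose by 2.35 under anti-VEGF (SE 0.32, adjusted p = 0.000327) and by 2.16 under vehicle (SE 0.32, adjusted p = 0.00062). Over the members as a whole, fatty liver anti-VEGF array 3 was the lowest fatty liver array for Nlrp3, P2rx7, Casp1, Casp4, Gsdmd, Il1a, Il1b and Il18, and for Casp12 it was the highest.

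Of the macrophage, neutrophil, dendritic cell, and T and NK cell markers, too, more rose than fell in fatty liver. The background for each marker list is the share of all tested genes. Under anti-VEGF 18.2% of them rose and 27.6% fell, and under vehicle 19.2% rose and 30.4% fell. All 12 macrophage markers were above the detection limit on every array, and their mean was 11.24 to 11.57 on the fatty liver arrays and 9.29 to 10.39 on the healthy liver arrays. Of these 11 rose under anti-VEGF and 11 under vehicle, with median log2 differences of 2.23 and 1.72. Neutrophil markers had 3 of 6 tested genes higher under each treatment, with list means of 4.88 to 7.70 in fatty and 4.34 to 4.78 in healthy liver; of the 12 with a row, Camp, Elane and Mpo were never above the limit, and over the 3 tested genes above it in both livers 2 rose under anti-VEGF and 3 under vehicle. T and NK cell markers rose in 8 of 10 under anti-VEGF and 10 of 10 under vehicle, with list means of 5.54 to 8.73 in fatty and 4.85 to 5.50 in healthy liver. Of the T and NK cell genes above the limit in both livers, 5 of 5 rose under each treatment. Dendritic cell markers rose in 4 of 6 tested genes under each treatment, with median log2 differences of 1.85 under anti-VEGF and 2.51 under vehicle. Of the 5 dendritic cell genes above the limit in both livers, 3 rose under each. Endothelial markers rose in 2 of 6 under anti-VEGF and 1 of 6 under vehicle, and 0 fell, with medians of 0.83 and -0.40. The 1 of 6 under vehicle was near the share of all tested genes that rose, and nothing is read from it. Fibroblast markers had 0 higher and 1 of 6 lower under each treatment, but their median log2 difference was 0.93 under anti-VEGF and -1.06 under vehicle. Pericyte and smooth muscle markers had 0 higher and 2 of 5 lower under anti-VEGF and 3 of 5 under vehicle. Intestinal epithelium markers had 1 higher and 2 of 4 lower under each. B cell markers had 1 of 2 higher and 1 lower under each. Hepatocyte markers had 0 higher under each, with 1 of 3 lower under anti-VEGF and 0 under vehicle. Whether these cells account for the members' differences was not tested, and in bulk tissue more cells of a type and more RNA per cell cannot be told apart.

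**Figure D3:**
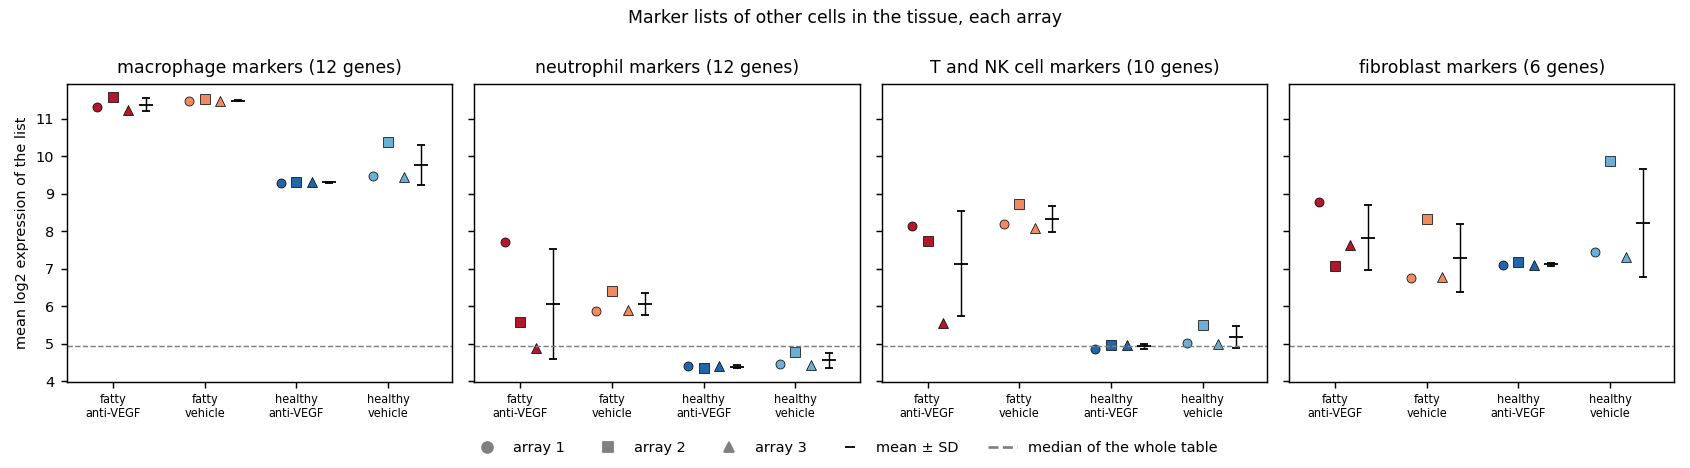
Mean log2 expression of the macrophage, neutrophil, T and NK cell, and fibroblast marker lists on each array, groups and symbols as in the plot of the 10 genes. Macrophage, neutrophil and T and NK cell lists are higher on the fatty liver arrays, while healthy liver vehicle array 2 (square) is the highest fibroblast array at 9.88.

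Other inflammasome sensors and regulators also differed with the liver. Of 14 tested genes 10 rose and 1 fell in fatty liver under each treatment, with median log2 differences of 0.86 under anti-VEGF and 1.08 under vehicle. Of all tested genes 18.2% rose and 27.6% fell under anti-VEGF, and 19.2% rose and 30.4% fell under vehicle. These shares are the background for this list and for each list below. Those with the smallest p were Nlrc4, the partner of the NAIP receptors for bacterial proteins (2.14, SE 0.17, adjusted p = 2.38e-05 under anti-VEGF and 1.96, SE 0.17, under vehicle), and Naip2 (2.26, SE 0.21 and 1.56, SE 0.21) and Naip5 (2.37, SE 0.24 and 2.23, SE 0.24). Naip6 (2.20, SE 0.25 and 1.22, SE 0.25) and Pstpip1, which binds pyrin (1.79, SE 0.21 and 1.55, SE 0.21), also rose under both. The Naip genes are close copies of one another, so the array may not separate them. Of these 14 genes, 5 rose under anti-VEGF and 6 under vehicle with nearly alike arrays averaged, and 4 rose under vehicle without the arrays high in Xist. The 1 that fell, Brcc3, which removes ubiquitin from NLRP3, was at -0.44 (SE 0.12) under anti-VEGF and -0.36 (SE 0.12) under vehicle. Under anti-VEGF it no longer passed when array 2 of fatty liver was omitted. Under vehicle it no longer passed when array 1 or 3 of healthy liver, or array 2 or 3 of fatty liver, was omitted. Without fatty liver anti-VEGF array 1, 2 genes fell under vehicle.

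The soluble inhibitors Il1rn and Il18bp rose in fatty liver, as did the member cytokines Il1b and Il18, while the ligand Il33 fell. Il1rn, the IL-1 receptor antagonist, was at 9.90 ± 0.42 in fatty and 7.15 ± 0.07 in healthy liver under anti-VEGF, and at 10.07 ± 0.29 and 7.81 ± 0.84 under vehicle (SD, n = 3 each), differences of 2.75 (SE 0.36) and 2.26 (SE 0.36). Il18bp, which traps IL-18, rose by 1.75 (SE 0.13, adjusted p = 2.08e-05) under anti-VEGF and 1.05 (SE 0.13) under vehicle. Il33, an alarmin of tissue cells, fell by 1.02 (SE 0.27) and 1.31 (SE 0.27), and Il1f9 (IL-36 gamma) passed under anti-VEGF (adjusted p = 0.042) and not under vehicle (adjusted p = 0.0757), a contrast between treatments that was not tested. Its healthy liver values were below the limit, and under anti-VEGF it was at least 3.09-fold higher in fatty liver. In all 3 of 4 tested genes of this list rose and 1 fell under anti-VEGF, and 2 rose and 1 fell under vehicle, with 1 rising and 0 falling under each treatment when nearly alike arrays were averaged. Il1f9 was tested through its fatty liver values, and without it 2 of 3 rose and 1 fell under each treatment. The fall under vehicle no longer passed without the 4 vehicle arrays high in Xist.

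Receptors and signalling genes went both ways, as did the tested genes as a whole. Of 14 tested genes 4 rose and 3 fell in fatty liver under anti-VEGF, where 18.2% of all tested genes rose and 27.6% fell. Under vehicle 6 rose and 3 fell, where 19.2% of all tested genes rose and 30.4% fell. Nothing about this list is read from both directions occurring. Il1r1, the receptor that transmits the signal of both IL-1 cytokines, was lower in fatty liver, at 8.18 ± 0.25 against 9.55 ± 0.08 under anti-VEGF and at 8.51 ± 0.24 against 9.59 ± 0.38 under vehicle (SD, n = 3 each), differences of -1.37 (SE 0.20, adjusted p = 0.000465) and -1.08 (SE 0.20, adjusted p = 0.00182). Irak3, an inhibitor of the pathway in myeloid cells, was higher by 3.59 (SE 0.44; 3.51 with the healthy liver array below the limit set to it, 2 of 3 being above) and 2.38 (SE 0.44), and the kinase Irak2 by 1.17 (SE 0.21) and 1.28 (SE 0.21). The adaptor Myd88 rose by 1.06 (SE 0.17) and 0.80 (SE 0.17). Il18r1, the IL-18 receptor, was below the limit on the healthy liver arrays and was at least 1.75-fold higher in fatty liver under anti-VEGF (adjusted p = 0.0269) and at least 3.32-fold under vehicle (adjusted p = 0.00142). Il18r1 and Il1rl2 passed the filter through their fatty liver values, and without them 3 of 12 rose under anti-VEGF and 5 of 12 under vehicle, with 3 falling under each. Without fatty liver anti-VEGF array 3, 7 of 14 rose under anti-VEGF. Fewer rose and fewer fell under vehicle without the 4 vehicle arrays high in Xist, which leaves 1 vehicle array per liver. With nearly alike arrays averaged 1 rose under anti-VEGF, 0 rose under vehicle and 0 fell under either.

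Among genes that handle extracellular ATP, 3 of 8 rose and 1 fell under each treatment. P2rx4, the channel encoded next to P2rx7, rose by 1.58 (SE 0.14, adjusted p = 3.33e-05) and 1.24 (SE 0.14), P2ry6 by 2.09 (SE 0.20) and 1.80 (SE 0.20), and Entpd1, which breaks down ATP, by 2.58 (SE 0.38) and 1.78 (SE 0.38), under anti-VEGF and vehicle in that order. Nt5e, which makes adenosine, fell by 1.31 (SE 0.35) and 0.94 (SE 0.35, adjusted p = 0.0441). Without the 4 vehicle arrays high in Xist, its fall under vehicle no longer passed. The fall under vehicle no longer passed when any 1 of 7 arrays was omitted: array 1 or 3 of fatty liver under vehicle, array 2 of fatty liver under anti-VEGF, array 3 of healthy liver under vehicle, or any array of healthy liver under anti-VEGF. With nearly alike arrays averaged, 2 genes rose and 0 fell under each treatment.

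Guanylate-binding proteins and Irgb10, which act on bacteria ahead of caspase-11, rose in 4 of 4 tested cases under anti-VEGF and 2 of 4 under vehicle. Gm12250 (Irgb10) rose by 2.71 (SE 0.25, adjusted p = 4.27e-05) and 1.17 (SE 0.25), Gbp5 by 2.65 (SE 0.31) and 1.16 (SE 0.31), and under anti-VEGF Gbp3 by 1.36 (SE 0.26) and Gbp7 by 1.07 (SE 0.22). Fewer of this list rose under vehicle without the 4 vehicle arrays high in Xist. With nearly alike arrays averaged, 2 rose under anti-VEGF and 0 under vehicle. Of 4 tested other caspases, Casp8, the initiator of death receptor signalling, rose by 0.92 (SE 0.12) under anti-VEGF and 0.83 (SE 0.12) under vehicle. Under vehicle Casp6 rose (0.79, SE 0.23) and Casp2 fell by 0.34 (SE 0.12, adjusted p = 0.0435). Casp2 no longer passed when any 1 vehicle array of fatty liver, any 1 anti-VEGF array of healthy liver, or array 1 or 3 of healthy liver under vehicle was omitted. Of Casp8 and Casp6, 1 passed when array 1 or 3 of healthy liver or array 2 of fatty liver under vehicle was omitted. With nearly alike arrays averaged 0 of these caspases passed under either treatment, and 0 passed under vehicle without the arrays high in Xist. Without fatty liver anti-VEGF array 3, 2 of them rose and 1 fell under anti-VEGF. Of 2 tested genes of the gasdermin and membrane rupture list, Ninj1 (0.86, SE 0.18) and Gsdme (0.49, SE 0.14) rose under vehicle, 1 of them without fatty liver vehicle array 2 and 0 with nearly alike arrays averaged or without the arrays high in Xist. In this list 0 of 2 passed in limma under anti-VEGF (1 without fatty liver anti-VEGF array 1 or 3 and 2 with array weights).

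Genes that IL-1 is known to induce rose in 5 of 11 cases under each treatment, and 0 fell. Icam1, an adhesion molecule for leukocytes, rose by 2.61 (SE 0.33, adjusted p = 0.0002) under anti-VEGF and 2.14 (SE 0.33) under vehicle, the neutrophil attractants Cxcl2 by 2.15 (SE 0.65) and 2.72 (SE 0.65) and Cxcl1 by 1.45 (SE 0.48) and 1.85 (SE 0.48). Nfkbiz rose by 0.76 (SE 0.24, adjusted p = 0.0272) and 0.66 (SE 0.24, adjusted p = 0.0434), and Tnfaip3, an inhibitor of NF-kB signalling, by 1.11 (SE 0.41, adjusted p = 0.0468) and 1.19 (SE 0.41, adjusted p = 0.0323). Under anti-VEGF 8 rose when fatty liver array 3 was omitted and 1 when any other array of the 2 anti-VEGF groups was, and 1 fell without fatty liver anti-VEGF array 1. Under vehicle 3 rose without any 1 of the vehicle arrays other than healthy liver array 2. Fewer rose under vehicle, too, without the 4 vehicle arrays high in Xist. With nearly alike arrays averaged, 0 rose under either treatment.

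**Figure D4:**
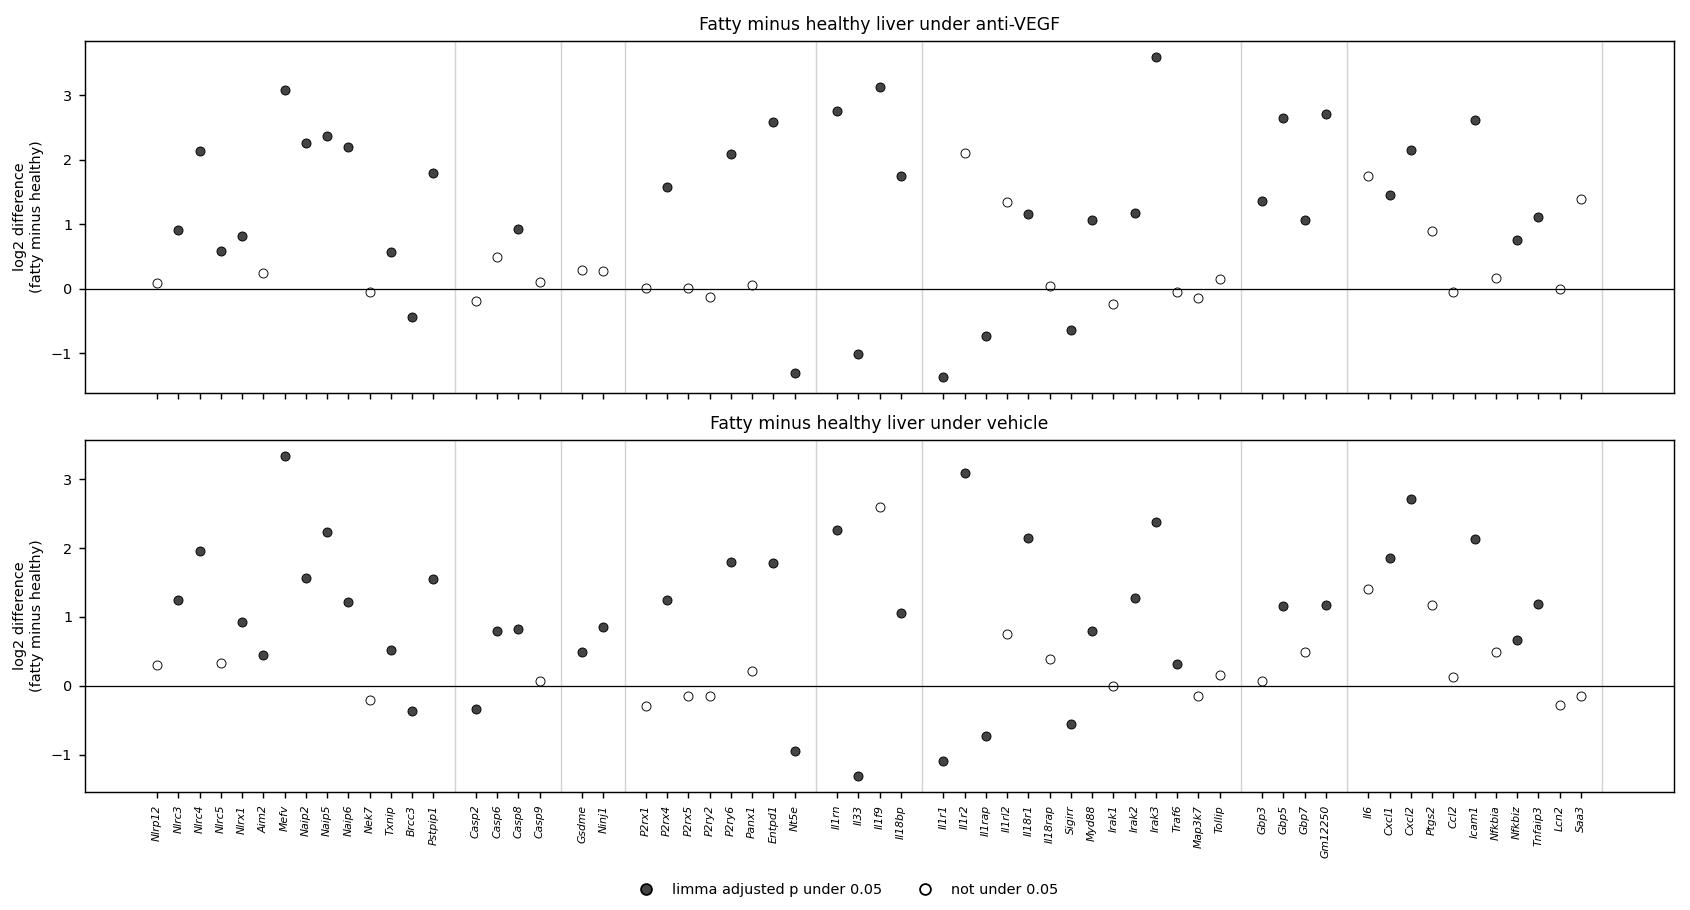
Log2 difference, fatty minus healthy liver, of the tested genes of 8 pathway lists (separated by grey lines), under anti-VEGF above and under vehicle below; filled circles have a limma adjusted p under 0.05. Sensors are mostly above 0, while Il1r1, Il33 and Nt5e lie below it in both panels.

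Within fatty liver, no change of these genes with anti-VEGF was detected. In limma 0 of the 10 members had an adjusted p under 0.05, where 0.00753% of all tested genes did (1 gene, Klk1b11). The differences ran from -0.30 to 0.22, with a median of -0.17 against 0.01 over all tested genes. At an unadjusted p under 0.05 there was 1 member, P2rx7, where 5.86% of all tested genes passed. With array weights 2 members passed, Casp12 (-0.25, adjusted p = 0.0326) and P2rx7 (-0.26, adjusted p = 0.0118). The differences between these 6 arrays did not choose the genes, but their spread did enter the SE behind the p that singled out Casp12 and P2rx7, so for these 2 genes the tests rest in part on values that entered the choice. Of the tested genes of the 8 pathway lists, 0 passed either in limma (with array weights, 1 sensor or regulator and 1 receptor or signalling gene were lower and 3 IL-1 response genes higher).

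P2rx7 was at 9.32, 9.37 and 9.28 under anti-VEGF and 9.67, 9.45 and 9.63 under vehicle. All 3 anti-VEGF arrays were below the vehicle arrays, a separation that 4.99% of all tested genes showed (3.07% had all 3 above, and 0 members did), and the log2 difference of -0.26 (SE 0.08) did not pass (adjusted p = 0.795, between 0.0118 and 1 over the alternatives). The higher P2rx7 values under vehicle were those of arrays 1 and 3, which are also high in Xist. Without the 4 vehicle arrays high in Xist, which leaves 1 vehicle array per liver, the P2rx7 difference was -0.13. Casp12 differed by -0.06 (SE 0.11, adjusted p = 0.927), and its groups overlapped. The spread among the anti-VEGF arrays was wide for Il1a (SD 2.31) and Nlrp3 (SD 1.32). Without anti-VEGF array 3 the differences of Nlrp3, Casp4, Il1b, Il18 and Gsdmd turned positive, at 0.47, 0.10, 0.28, 0.10 and 0.16, and 0 members passed.

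In healthy liver, the contrast that chose the set, 9 of the 10 members had lower means under anti-VEGF, and Il1b did not. The largest differences were those of Casp1 (-0.99, SE 0.24), Casp12 (-0.88, SE 0.11), Nlrp3 (-0.82, SE 0.57), Casp4 (-0.62, SE 0.26) and P2rx7 (-0.58, SE 0.08). In 7 members all 3 anti-VEGF arrays lay below all vehicle arrays, as in 11.7% of all tested genes, and in 0 were they all above, as in 13.1%; nothing is read from that count. Over all 13286 genes, limma gave 0 with an adjusted p under 0.05 (0% called; 8.41% at an unadjusted p under 0.05; 1661 genes with array weights). Il1b and Il1a turned on vehicle array 2: without it their differences were 0.84 and 0.42, against 0.06 and -0.25 with it. Without the vehicle arrays high in Xist, which leaves vehicle array 2 alone, P2rx7 differed by -0.46, Casp1 by -1.47 and Nlrp3 by -1.76.

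**Figure D5:**
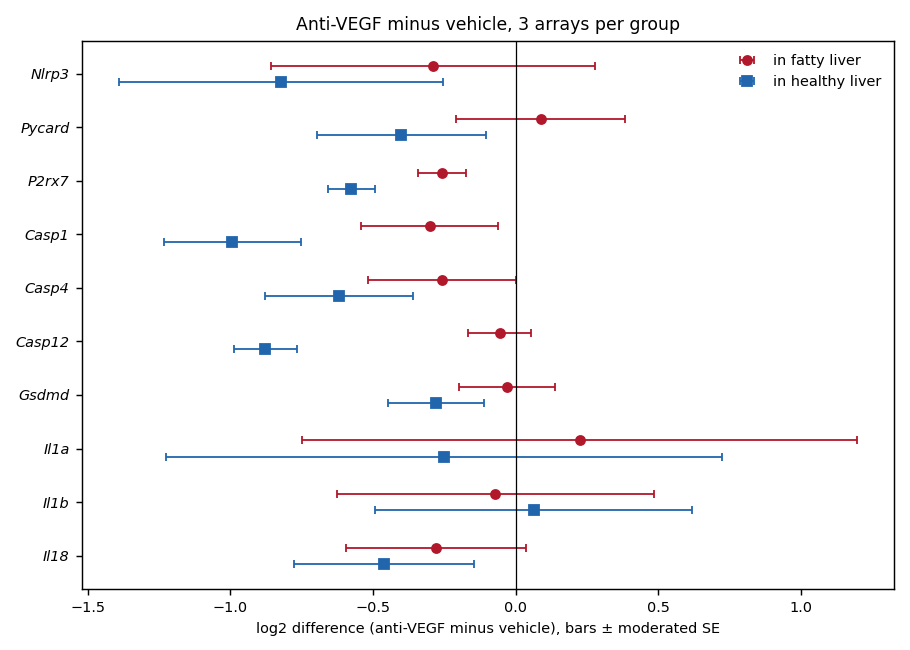
Log2 difference, anti-VEGF minus vehicle, of the 10 genes in fatty liver (circles) and in healthy liver (squares), with bars of 1 moderated standard error, 3 arrays per group. In fatty liver all lie between -0.30 and 0.22; in healthy liver Casp1 is lowest at -0.99, and those values chose the genes and carry no test.

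The treatment differences in both livers, side by side, were -0.06 in fatty and -0.88 in healthy liver for Casp12, -0.30 and -0.99 for Casp1, -0.26 and -0.62 for Casp4, and -0.26 and -0.58 for P2rx7. In the same order they were -0.29 and -0.82 for Nlrp3, 0.09 and -0.40 for Pycard, and -0.28 and -0.46 for Il18. For Gsdmd they were -0.03 and -0.28, for Il1a 0.22 and -0.25, and for Il1b -0.07 and 0.06. Whether the response depended on the liver was not tested, because the healthy liver values had chosen the genes. In healthy liver, the list of guanylate-binding proteins and Irgb10 had a median difference of -1.37 with treatment. The macrophage markers had -0.49 and the endothelial markers -1.29. For the endothelial markers, vehicle array 2 had a list mean of 8.91, against 5.30 and 5.34 on the other vehicle arrays. In fatty liver the same medians were 0.02, -0.05 and -0.31. The T and NK cell markers had a median difference of -1.06 in fatty liver and -0.24 in healthy liver. In fatty liver all 10 were lower in mean (-2.21 to -0.64) and 0 passed in limma. Their list means there were 8.12, 7.74 and 5.54 under anti-VEGF, with array 3 the lowest, and 8.18, 8.73 and 8.09 under vehicle. The fibroblast markers had 0.59 in fatty and -1.14 in healthy liver. Healthy liver vehicle array 2 was also the highest vehicle array of its group for fibroblast and macrophage markers. Its list means were 9.88 for fibroblast markers, against 7.44 and 7.31, and 10.39 for macrophage markers, against 9.48 and 9.44. The part of these lists in the members' values was not tested.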

How the data were processed

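RNA of 12 samples was measured on 1 single-colour array each. The authors deposited expression values on a log2 scale; Affymetrix Expression Console made them, per the submitters' processing notes, and no source used here names its version, algorithm, normalization or build. That the scale is log2 was taken from how the values range, and centring is not stated; column medians ran from 4.88 to 4.99. Precision is limited by how many arrays there are.

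Gene names came from the platform annotation, with 1 symbol for 23521 of 41345 rows, several for 1814 and none for 16010. For several rows of a gene the one with the highest mean was used, giving 22180 genes. A gene was tested when above the table median on at least 3 arrays (13286 genes). One limma model (version 3.58.1, R 4.3.3) with 1 coefficient for each group (lmFit, eBayes) was fitted to all arrays, with 8 residual and 2.4 prior degrees of freedom, and p-values were adjusted by Benjamini-Hochberg over all tested genes. SE is the moderated standard error. The fit was tested on simulated data with independent arrays, so that test does not cover arrays that are nearly alike.

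The members, the 8 pathway lists and the 10 marker lists were chosen with earlier results of these data known. Text names all members and, per list and comparison, up to 4 genes past the threshold with the smallest p; Brcc3 was named after its values were seen, as the 1 falling gene of its list, and so was Klk1b11, the 1 gene called with treatment. Listed genes without a row of their own were not analysed here. Start regions and gene order are from RefSeq (GRCm38.p6). The labels call the replicates biological and the design text gives 3 mice per group; p-values measure the spread between these arrays, which may be technical.

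Replicate numbers are shared between groups. Same-numbered arrays deviated together, at r above 0.1 for each number, in fatty against healthy liver under vehicle and in no other comparison (0.536, 0.701 and 0.549). Arrays 1 and 3 correlated at least as closely across numbers (0.574 and 0.553). The pattern, which comes from the data alone, thus sets array 2 apart from arrays 1 and 3 and does not show a pairing by number. Alternatives were a changed or absent filter, quantile normalization, array weights, another variance model, fits of 2 groups, the replicate block, near-identical arrays averaged, leaving out arrays, and the mean of rows. Leaving out both arrays that stand apart, the counts over genes above the limit on at least 3 arrays of each liver, and differences with low arrays set to the limit were added after seeing the data.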

Additional observations from a re-analysis of the deposited data

How the results depend on the processing

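Between livers, the directions of the 10 members were unchanged under all alternatives run. The genes called under anti-VEGF numbered 9884 with array weights and 510 with near-identical arrays averaged (2 members called, Il1a counted among the 8 tested), against 6084; the averaging leaves fewer samples. Under vehicle they numbered 721 with that averaging (members called 1) and 1057 without the 4 vehicle arrays high in Xist (members called 0), where 1 array is left per vehicle group and is assumed to vary like the others, against 6595. Leaving out 1 array at a time gave 4274 to 7475 genes under anti-VEGF and 4689 to 7337 under vehicle, with 8 and 6 to 8 members called. With the replicate block 8 members were called under anti-VEGF, 7 under vehicle and 0 in fatty liver, and the block changed no member's call; it moved the 1 gene called with treatment in fatty liver to 0.

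For treatment in fatty liver, 1848 genes and 2 members were called with array weights. There were 0 genes with only the 2 groups compared, with near-identical arrays averaged, without the arrays high in Xist and without the 2 arrays that stand apart, and 0 to 11 with 1 array left out. In healthy liver, 1661 genes were called with array weights, 9 with another variance model, 47 with only the 2 groups, 754 without the arrays high in Xist, 39 without the 2 arrays that stand apart, and 0 to 41 with 1 array left out.

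Some treatment differences changed sign. In fatty liver with array weights they were 0.44 for Nlrp3, 0.033 for Casp4, 0.27 for Il1b, 0.065 for Il18 and 0.10 for Gsdmd. Without fatty liver anti-VEGF array 3, alone or with healthy liver vehicle array 2, they were 0.47 for Nlrp3, 0.10 for Casp4, 0.28 for Il1b, 0.10 for Il18 and 0.16 for Gsdmd. Il1a was at -0.016 with near-identical arrays averaged, -0.73 without the arrays high in Xist, -0.05 without vehicle array 3 and -0.87 without anti-VEGF array 1. Il1b was at 0.13 without vehicle array 2, Pycard at -0.0073 and Casp12 at 0.074 without anti-VEGF array 2. In healthy liver Il1a was at 0.35 with array weights and 0.42 without vehicle array 2 (also with both arrays that stand apart left out), and Il1b at -0.33 with near-identical arrays averaged and without vehicle array 1 or 3, and -1.50 without the arrays high in Xist. With 1 array left out, the ranges in fatty liver were -0.72 to 0.47 for Nlrp3, -0.0073 to 0.21 for Pycard, -0.53 to 0.10 for Casp4, -0.14 to 0.074 for Casp12, -0.87 to 1.43 for Il1a, -0.34 to 0.28 for Il1b, -0.56 to 0.10 for Il18 and -0.17 to 0.16 for Gsdmd, and in healthy liver -0.59 to 0.42 for Il1a and -0.33 to 0.84 for Il1b. The causes were not tested.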

Other observations

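Further genes of the pathway, chosen here after their values were seen, differed between livers. Mefv, which encodes the sensor pyrin, was at 8.07 ± 1.23 in fatty and 4.98 ± 0.10 in healthy liver under anti-VEGF, and at 8.39 ± 0.58 and 5.06 ± 0.50 under vehicle (SD, n = 3 each), log2 differences of 3.08 (SE 0.53, adjusted p = 0.0013) and 3.34 (SE 0.53, adjusted p = 0.000911). The healthy liver means of Mefv lay close to the detection limit of 4.93, where the size of a difference is less certain. Il1r2, the decoy receptor that binds IL-1 without signalling, was at 10.05 ± 0.65 in fatty and 6.95 ± 0.65 in healthy liver under vehicle, a difference of 3.09 (SE 0.85, adjusted p = 0.0132). Under anti-VEGF it was at 8.87 ± 2.19 and 6.77 ± 0.22 and did not pass (2.10, SE 0.85, adjusted p = 0.0658).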
